A study of Mus musculus with 28 samples.

Results

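Chemokines are small secreted proteins that steer leukocytes, and chemokine receptors are the seven-transmembrane receptors through which cells read them. All 53 genes of the 20416 in the tables whose symbol follows the chemokine ligand and receptor nomenclature (Ccl, Cxcl, Cx3cl, Xcl, Ccr, Cxcr or Xcr followed by a number) were taken, of which 35 code for ligands and 18 for receptors. The rule used names only and no measured value, although it was set with earlier results of these data known. They were followed in mRNA-seq of whole liver from male C57BL/6 mice, in 28 libraries that model non-alcoholic steatohepatitis (NASH), the inflamed form of fatty liver.

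The first model (MCD, n = 4) was a diet lacking methionine and choline, set against mice on a matched low-fat control diet (CD, n = 4). The sample titles give 4 weeks for this experiment and a separate duration label gives 5. The second model (STAM) combined an injection of streptozotocin, a toxin of the insulin-producing beta cells, on day 2 after birth with a high-fat diet started at week 4. Livers were taken at 4 weeks of age (STAM, n = 5, control, n = 5) and at 10 weeks of age (STAM, n = 5, control, n = 5), so the younger STAM mice were at the age at which that diet began, although their labels also name the high-fat diet. The controls of the STAM arms are labelled as receiving a control diet, and their labels do not mention an injection. Nothing in the labels states that each library came from its own mouse, so the p-values measure the spread between libraries.

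In a healthy liver the resident macrophages (Kupffer cells), sinusoidal endothelium, stellate cells, cholangiocytes and hepatocytes all release some chemokines, and the blood-borne leukocytes carry most of the receptors. Ligands with a CC motif act mainly on monocytes, macrophages and lymphocytes. A group of CXC ligands acts on neutrophils through Cxcr2, and the interferon-induced CXC ligands act on activated T and NK cells through Cxcr3. Many inflammatory ligands are switched on through NF-kappaB or interferon signalling, while others, such as Cxcl12, are made constantly by stromal and endothelial cells.

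The libraries held 16184576 to 25911864 reads summed over the genes of the tables. On the authors' scaled library sizes 3 reads corresponded to at most 0.20 CPM (reads per 1000000 reads of that size). Values below are CPM after the authors' scaling, which put every MCD and 10-week STAM library on a factor above 1 (1.05 to 1.23) and every CD and 10-week control library on a factor below 1 (0.832 to 0.939). All 8 hepatocyte markers of a fixed list had reads in every group, with a summed level of 79445 to 102137 CPM in CD, 65251 to 86768 in MCD, 79213 to 104670 in 10-week controls and 42575 to 56590 in 10-week STAM. Control replicate 1 of the 4-week arm stood apart from its group, with 837 of 11956 expressed genes more than 2-fold from the median of the other controls, against 75 to 226 genes in those controls. In whole tissue, more cells of a type and more RNA per cell cannot be told apart.

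More members were called higher than lower in the diseased livers in each comparison. A gene was called when the Benjamini-Hochberg adjusted p of the limma fit over all 15312 genes tested in a table was under 0.05. In MCD, 20 members were called higher and 4 lower of 46 tested, where 42.7% of all genes tested were called, 22.6% higher and 20.1% lower. In 4-week STAM, 10 were called higher and 1 lower of 44 tested, against 9.8% of all genes, 6.52% higher and 3.27% lower. In 10-week STAM, 21 were called higher and 4 lower of 47 tested, against 47.8% of all genes, 25.3% higher and 22.5% lower. Counts of list and marker genes given below stand beside the same shares, and no list was tested against them. The median log2 fold change of the tested members was 0.94 in MCD, 0.76 at 4 weeks and 1.01 at 10 weeks, and that of all genes tested was 0.07, 0.01 and 0.05. Tested members had passed a filter on low mean values, so these medians and counts do not cover the whole family. At 10 weeks the tested members included Ccl20 and Ccr8, each with 0 reads in controls and 5 in STAM. Both passed the filter through STAM alone, so their fitted change could only be upward. Groups without overlap were common among all genes tested. Every diseased liver lay above every control for 20.9% of genes in MCD, 6.38% at 4 weeks and 16.8% at 10 weeks. Every diseased liver lay below every control for 19.2%, 3.67% and 16.3%. Of the tested members 19, 6 and 16 lay wholly above and 3, 0 and 2 wholly below.

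Scaling by total reads in place of the authors' factors moved the median of all genes by 0.42 in MCD and by 0.29 at 10 weeks, and the share of called genes that were higher went from 52.9% to 86.1% in MCD, from 66.6% to 83.7% at 4 weeks and from 53.0% to 88.1% at 10 weeks. With total reads 27 members were called higher and 3 lower in MCD, 10 and none at 4 weeks (22 members at an unadjusted p under 0.05 with the authors' scaling), and 23 and 2 at 10 weeks. Quantile normalization ended the calls of Ccl5, Ccl9, Ccl17, Ccl20 and Ccr7 in MCD, of Ccl5, Ccl22, Cxcl2 and Cxcl12 at 4 weeks and of 8 members at 10 weeks that are named with their values below. Total-read scaling added higher calls of Ccl8, Ccr4, Ccr9, Cxcl1, Cxcr2, Cxcr3 and Xcr1 in MCD and of Ccl2 and Ccl19 at 10 weeks. Quantile normalization added lower calls of Cxcl11 and Ccl24 in MCD and of Ccl25, Cxcl11, Cxcr3 and Cxcr6 at 10 weeks. The members' changes below are relative to the authors' scaling.

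Ligands accounted for 15 of the 20 higher calls in MCD, 9 of 10 at 4 weeks and 13 of 21 at 10 weeks. The ligands tested numbered 30, 28 and 30. Receptors gave 5 higher calls of 16 tested in MCD, 1 of 16 at 4 weeks and 8 of 17 at 10 weeks. Of the ligands tested 63.3%, 35.7% and 56.7% were called either way, and of the receptors 31.2%, 6.25% and 47.1%. Of all genes tested 42.7%, 9.8% and 47.8% were called, 22.6%, 6.52% and 25.3% higher. No receptor was called lower under the authors' scaling, and quantile normalization called Cxcr3 and Cxcr6 lower at 10 weeks. At an unadjusted p under 0.05 there were 7, 4 and 8 receptors. Ccl4, Ccl5, Ccl6, Ccl22, Cxcl2, Cxcl10, Cxcl14 and Ccr2 were called higher in all 3 comparisons. Cxcl12 was the single member called lower in all 3, and its 4-week call (adjusted p = 0.0481) was kept in 5 of 18 alternatives. There were 22 members called in no comparison, and 6 of these (Ccl1, Ccl26, Cxcl3, Cxcl15, Cxcl17 and Ccr10) had too few reads to be tested anywhere.

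**Figure D1:**
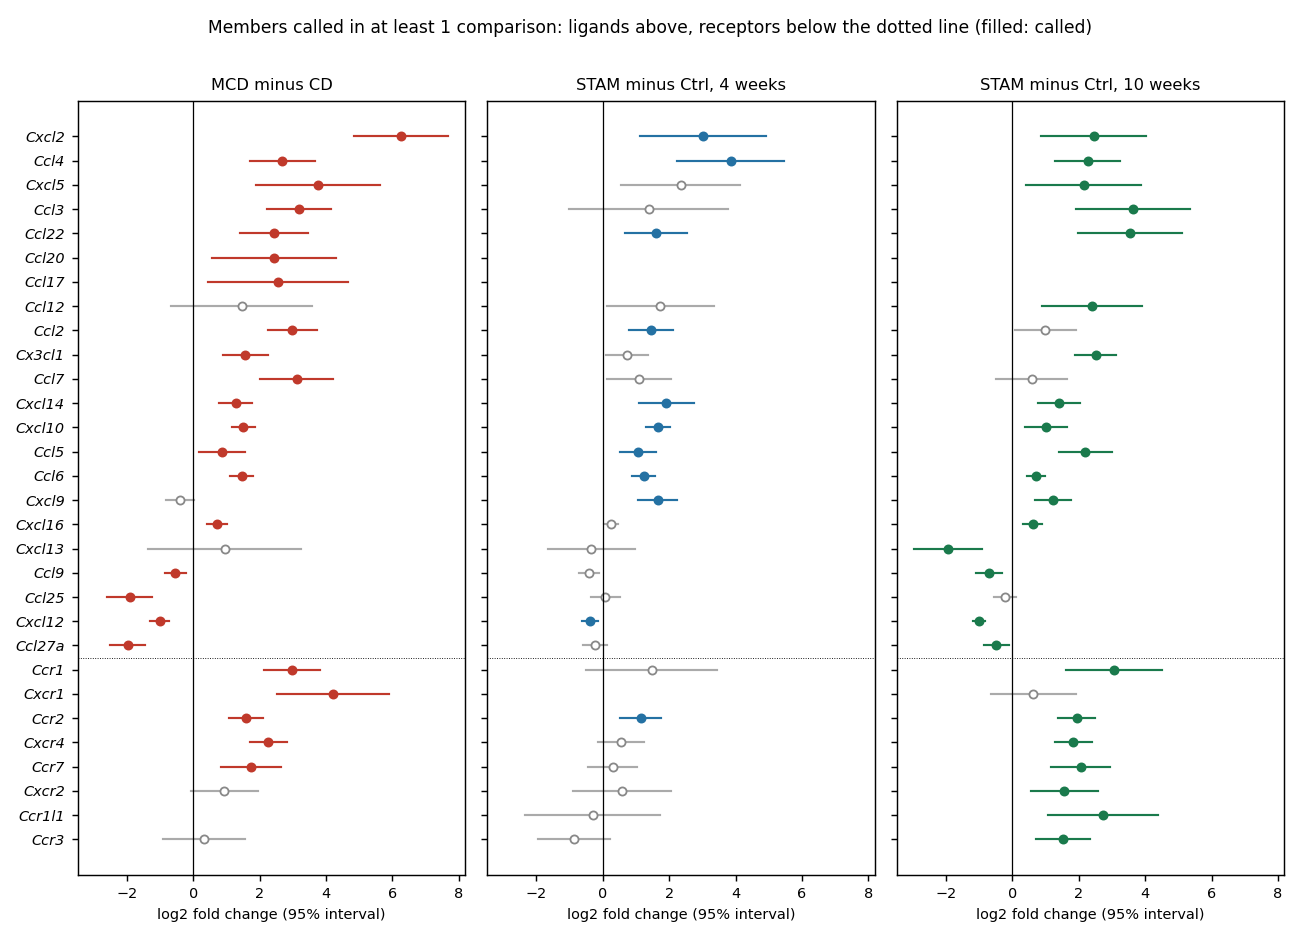
Log2 fold change with its 95% interval (horizontal axis) of 30 members called in at least 1 comparison, ligands above and receptors below the dotted line, for MCD against CD, 4-week STAM against control and 10-week STAM against control. Filled points were called and open points were not, members with under 10 reads in a table are left blank there, and the widest calls lie in MCD at Cxcl2 (6.25) and Cxcr1 (4.21).

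Promoter windows of RefSeq (GRCm38.p6, the assembly also called mm10) were available for 38 of the 53 members. Each covers 300 bases, from 250 bases before the transcription start to 50 bases after it, counting the start. The letters GGGAANNNCC on either strand, the core of an NF-kappaB site, were found in 9 of the 38 windows (23.7%), against 5.79% of 32817 mouse promoter windows of the same length. The letters GAAANNGAAA, shared by interferon-stimulated response elements, were found in 3 of the 38 (7.89%), against 3.43% of all. Both matches are descriptions of letters and not of bound sites. The windows of 2 neighbouring pairs on chromosome 5 are shown because their members differ in their calls: Cxcl2 was called higher in every comparison and Cxcl1 in none, and Cxcl10 was called higher in MCD where Cxcl9 was not. Capitals mark the matches.

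Cxcl1 (chr5:90890995-90891294, plus strand): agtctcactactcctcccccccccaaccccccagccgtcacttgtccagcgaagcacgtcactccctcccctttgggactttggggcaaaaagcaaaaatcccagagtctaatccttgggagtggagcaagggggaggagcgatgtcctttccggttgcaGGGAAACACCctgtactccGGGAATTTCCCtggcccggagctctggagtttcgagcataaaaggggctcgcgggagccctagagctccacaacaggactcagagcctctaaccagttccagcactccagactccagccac
Cxcl2 (chr5:90903649-90903948, plus strand): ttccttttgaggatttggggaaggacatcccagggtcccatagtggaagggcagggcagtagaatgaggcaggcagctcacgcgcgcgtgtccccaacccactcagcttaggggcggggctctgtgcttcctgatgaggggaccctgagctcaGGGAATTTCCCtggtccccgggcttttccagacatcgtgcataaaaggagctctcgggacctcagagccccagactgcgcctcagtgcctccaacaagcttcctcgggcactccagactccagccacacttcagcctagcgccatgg
Cxcl9 (chr5:92328030-92328329, minus strand): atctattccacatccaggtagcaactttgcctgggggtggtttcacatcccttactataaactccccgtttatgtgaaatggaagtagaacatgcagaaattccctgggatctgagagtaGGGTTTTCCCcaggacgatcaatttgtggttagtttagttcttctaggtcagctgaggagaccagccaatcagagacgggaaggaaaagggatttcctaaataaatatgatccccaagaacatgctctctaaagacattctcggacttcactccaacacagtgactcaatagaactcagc
Cxcl10 (chr5:92348840-92349139, minus strand): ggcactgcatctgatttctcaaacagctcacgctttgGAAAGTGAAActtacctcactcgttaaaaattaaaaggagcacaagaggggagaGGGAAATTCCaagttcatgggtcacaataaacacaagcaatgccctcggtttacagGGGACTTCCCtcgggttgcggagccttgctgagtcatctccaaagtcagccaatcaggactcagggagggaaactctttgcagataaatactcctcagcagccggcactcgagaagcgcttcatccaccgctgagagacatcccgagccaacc

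The Cxcl1 and Cxcl2 windows both hold GGGAATTTCC, which starts 71 bases before the start of Cxcl1 and 97 bases before that of Cxcl2. Because GGGAATTTCCC reads as a match on both strands, each of those places counts as overlapping matches. Cxcl1 has a further match, GGGAAACACC, at 90 bases. Cxcl9 has 1 match, GGGTTTTCCC, at 130 bases. Cxcl10 has GGGAAATTCC at 159 bases and GGGACTTCCC at 103 bases, and the interferon-type letters GAAAGTGAAA at 213 bases before its start. The other members with the NF-kappaB letters were Ccl1, Ccl19, Ccl20, Cxcl3 and Ccr3, and Cxcl14 and Ccl19 also held the interferon-type letters.

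The neutrophil attractants that signal through Cxcr2 sit together on chromosome 5 (chr5:90759298-90905938, mm10, with Cxcl5, Cxcl3, Cxcl15, Cxcl1 and Cxcl2), and among them Cxcl2 changed the most. Its level was 0.0508, 0, 0 and 0 CPM in the 4 CD livers and 1.65, 0.966, 1.69 and 1.07 CPM in the 4 MCD livers. The CD group had 1 read in all against 138 in MCD, a ratio of 95.2 with a 95% counting interval of 16.8 to 3787. The fitted log2 fold change was 6.25 (SE 0.65, adjusted p = 1.15e-05), and every MCD liver was above every CD liver. With 1 control read the fitted size depends on the prior, and a prior of 2 reads gave 3.79. At 4 weeks the level was 0.0645, 0.119, 0.229, 0 and 0 CPM in controls and 0.160, 0.516, 0.222, 1.18 and 0.576 CPM in STAM. The groups overlapped, and the log2 fold change of 3.02 (SE 0.87, adjusted p = 0.0454) lost its call without control replicate 4 or 5 or any of the 5 STAM livers (adjusted p 0.0541 to 0.113). At 10 weeks it was 0.264, 0.146, 0.0479, 0.141 and 0 CPM in controls and 0.299, 0.909, 0.469, 0.346 and 0.469 CPM in STAM, with no overlap. The log2 fold change there was 2.46 (SE 0.73, adjusted p = 0.014), and it was not called under quantile normalization (adjusted p = 0.142).

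Cxcl5, another Cxcr2 ligand, was at 0.0508, 0, 0.166 and 0.0668 CPM in CD and 0.590, 2.86, 0.578 and 0.314 CPM in MCD (log2 fold change 3.76, SE 0.86, adjusted p = 0.0038). The MCD livers were all above the CD livers, and replicate 2 was the highest. At 10 weeks Cxcl5 rose on few reads, 4 in the controls and 23 in STAM (log2 fold change 2.15, adjusted p = 0.0407), and the call was lost without control replicate 2 or 4 or STAM replicate 1, 2, 4 or 5 (adjusted p 0.0509 to 0.104) and under quantile normalization (adjusted p = 0.355). At 4 weeks its log2 fold change of 2.35 was not called (adjusted p = 0.0972), and without control replicate 2 it was (2.91, adjusted p = 0.0438).

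Cxcl1, the mouse counterpart of the human growth-regulated oncogene alpha, was not called in any comparison by the main limma fit. A single control liver held its highest level in both the MCD and the 10-week experiment. In CD it was 6.30, 6.46, 18.4 and 5.54 CPM and in MCD 11.8, 13.6, 11.7 and 10.6 CPM (log2 fold change 0.56, adjusted p = 0.197). CD replicate 3 stood above every MCD liver, and without it Cxcl1 was called higher (0.96, adjusted p = 0.000444). At 10 weeks controls were at 52.5, 4.18, 7.90, 3.42 and 4.27 CPM and STAM at 6.23, 4.91, 3.34, 3.36 and 5.04 CPM, where control replicate 1 lay far above all the others (log2 fold change -0.77, adjusted p = 0.399). At 4 weeks the log2 fold change was 1.0 (adjusted p = 0.162). The authors' deposited table, unlike the limma fit, called Cxcl1 lower at 10 weeks (-1.65, adjusted p = 0.0156). Cxcl3 had 4, 0 and 5 reads and Cxcl15 had 0, 1 and 0 reads in the MCD, 4-week and 10-week tables.

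Their receptors Cxcr1 and Cxcr2 are neighbours on chromosome 1 (chr1:74153994-74194631). Cxcr2, the main chemokine receptor of neutrophils, was at 0.528, 0.146, 0.574, 0.328 and 0.102 CPM in 10-week controls and 0.635, 0.864, 0.678, 0.841 and 1.28 CPM in 10-week STAM. It rose there with no overlap (log2 fold change 1.56, SE 0.47, adjusted p = 0.0145), though not under quantile normalization (adjusted p = 0.245). In the MCD experiment Cxcr2 was 0.508, 0.362, 1.66 and 0.334 CPM in CD and 1.53, 0.926, 0.934 and 1.07 CPM in MCD. CD replicate 3 was the highest of all 8 livers. The log2 fold change of 0.93 was not called (adjusted p = 0.123) and without that library it was 1.44 (adjusted p = 0.00686). At 4 weeks controls were at 0.129, 0.298, 0.631, 0.0486 and 0.114 CPM and STAM at 0.160, 0.103, 0.222, 0.752 and 0.432 CPM, which overlapped (log2 fold change 0.57, adjusted p = 0.685).

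Cxcr1 was called higher in MCD, at 0, 0, 0.0552 and 0 CPM in CD and 0.157, 0.362, 0.534 and 0.314 CPM in MCD. That is 1 read against 35, a ratio of 24.1 with a counting interval of 4.06 to 981 (log2 fold change 4.21, SE 0.77, adjusted p = 0.000856). It had 5 reads in the whole 4-week table, and at 10 weeks its log2 fold change was 0.64 (adjusted p = 0.39). Of 9 neutrophil marker genes, 1 of which is Cxcr2 itself, 3 of 7 tested rose in MCD, none of 9 at 4 weeks and 4 of 8 at 10 weeks. Their summed level was 4.39 to 12.9 CPM in CD and 13.8 to 26.1 in MCD, 4.06 to 17.3 in 4-week controls and 5.58 to 21.6 in 4-week STAM, and 4.60 to 9.64 in 10-week controls and 9.54 to 21.3 in 10-week STAM. Camp had no reads in CD, and Ly6g and Camp had none in 10-week controls. The part of neutrophil number in these differences was not tested.

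The monocyte attractants Ccl2 and Ccl7 had their largest fitted changes in MCD. Both genes lie in a cluster of CC ligands on chromosome 11 (chr11:82035577-82179812, with Ccl11, Ccl12, Ccl8 and Ccl1) and act on monocytes through Ccr2. Ccl2 was at 1.37, 0.879, 2.37 and 0.668 CPM in CD and 12.1, 7.73, 7.83 and 10.4 CPM in MCD. The groups were far apart (log2 fold change 2.98, SE 0.34, adjusted p = 2.88e-05). In 4-week controls it was 0.709, 0.715, 0.860, 1.26 and 0.572 CPM and in 4-week STAM 2.83, 1.24, 1.60, 3.38 and 2.74 CPM (log2 fold change 1.46, SE 0.31, adjusted p = 0.0109), where the lowest STAM liver fell just under the highest control. In 10-week controls it was 2.05, 0.729, 0.718, 0.563 and 0.355 CPM and in 10-week STAM 1.19, 2.68, 0.938, 1.19 and 1.96 CPM. Control replicate 1 was above 4 of the 5 STAM livers, and the log2 fold change of 0.99 (SE 0.42, adjusted p = 0.0686) was not called. Without that control it was 1.36 (adjusted p = 0.00626).

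Ccl7, which acts on Ccr2 and other receptors, was at 0.305, 0.103, 0.331 and 0.0668 CPM in CD and 1.69, 1.05, 1.33 and 2.26 CPM in MCD, with no overlap (log2 fold change 3.12, SE 0.51, adjusted p = 0.000364). In STAM its log2 fold change was 1.10 at 4 weeks (adjusted p = 0.152) and 0.59 at 10 weeks (adjusted p = 0.35), neither called. Ccl12, a mouse ligand of Ccr2, was called higher at 10 weeks on 1 read in controls against 9 in STAM, a ratio of 7.87 with a counting interval of 1.09 to 345 (adjusted p = 0.0125), and not under quantile normalization (adjusted p = 0.172). In MCD and at 4 weeks Ccl12 was not called (adjusted p = 0.25 and 0.174). Ccl8, with 12, 15 and 9 reads in the MCD, 4-week and 10-week tables, and Ccl11, or eotaxin-1, with 10, 17 and 6 reads, were called in no comparison. Ccl1 had 1, 1 and 0 reads.

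Ccr2, which brings inflammatory monocytes out of the bone marrow and into tissue, was the one receptor called higher in all 3 comparisons. It was at 5.13, 2.64, 4.03 and 3.34 CPM in CD and 15.0, 8.58, 12.7 and 9.14 CPM in MCD (log2 fold change 1.59, SE 0.23, adjusted p = 0.000163). At 4 weeks controls were at 1.10, 2.80, 2.12, 1.60 and 1.2 CPM and STAM at 4.11, 5.01, 2.26, 4.32 and 3.36 CPM (log2 fold change 1.14, SE 0.28, adjusted p = 0.0231). The 4-week groups overlapped, and the call was lost without control replicate 5 or STAM replicate 1, 2 or 4 (adjusted p 0.0565 to 0.0622). At 10 weeks controls were at 2.05, 2.91, 2.49, 1.64 and 1.88 CPM and STAM at 5.49, 9.09, 5.26, 10.2 and 14.3 CPM, with no overlap and replicate 5 the highest (log2 fold change 1.93, SE 0.26, adjusted p = 8.5e-05).

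Markers of monocytes and recruited macrophages were called higher in all 3 comparisons, as was Ccr2. Ccl2 was not called at 10 weeks and Ccl7 at neither age of STAM. Of 6 monocyte markers, 1 of which is Ccr2 itself, 4 rose in MCD, 3 at 4 weeks and 5 at 10 weeks, and none fell. Their summed level was 14.2 to 18.8 CPM in CD and 27.3 to 35.6 in MCD, 7.16 to 17.2 and 17.1 to 25.7 in 4-week controls and STAM, and 6.86 to 10.2 and 16.4 to 33.4 in 10-week controls and STAM. Of 7 markers of recruited macrophages, 6 rose in MCD and all 7 at both ages of STAM. Their summed level was 100.3 to 123 CPM in CD and 298 to 452 in MCD, 51.0 to 79.5 and 127 to 183 in 4-week controls and STAM, and 40.2 to 62.0 and 144 to 452 at 10 weeks. No marker of either list was at 0 in any group, and their part in the chemokine differences was not tested.

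**Figure D2:**
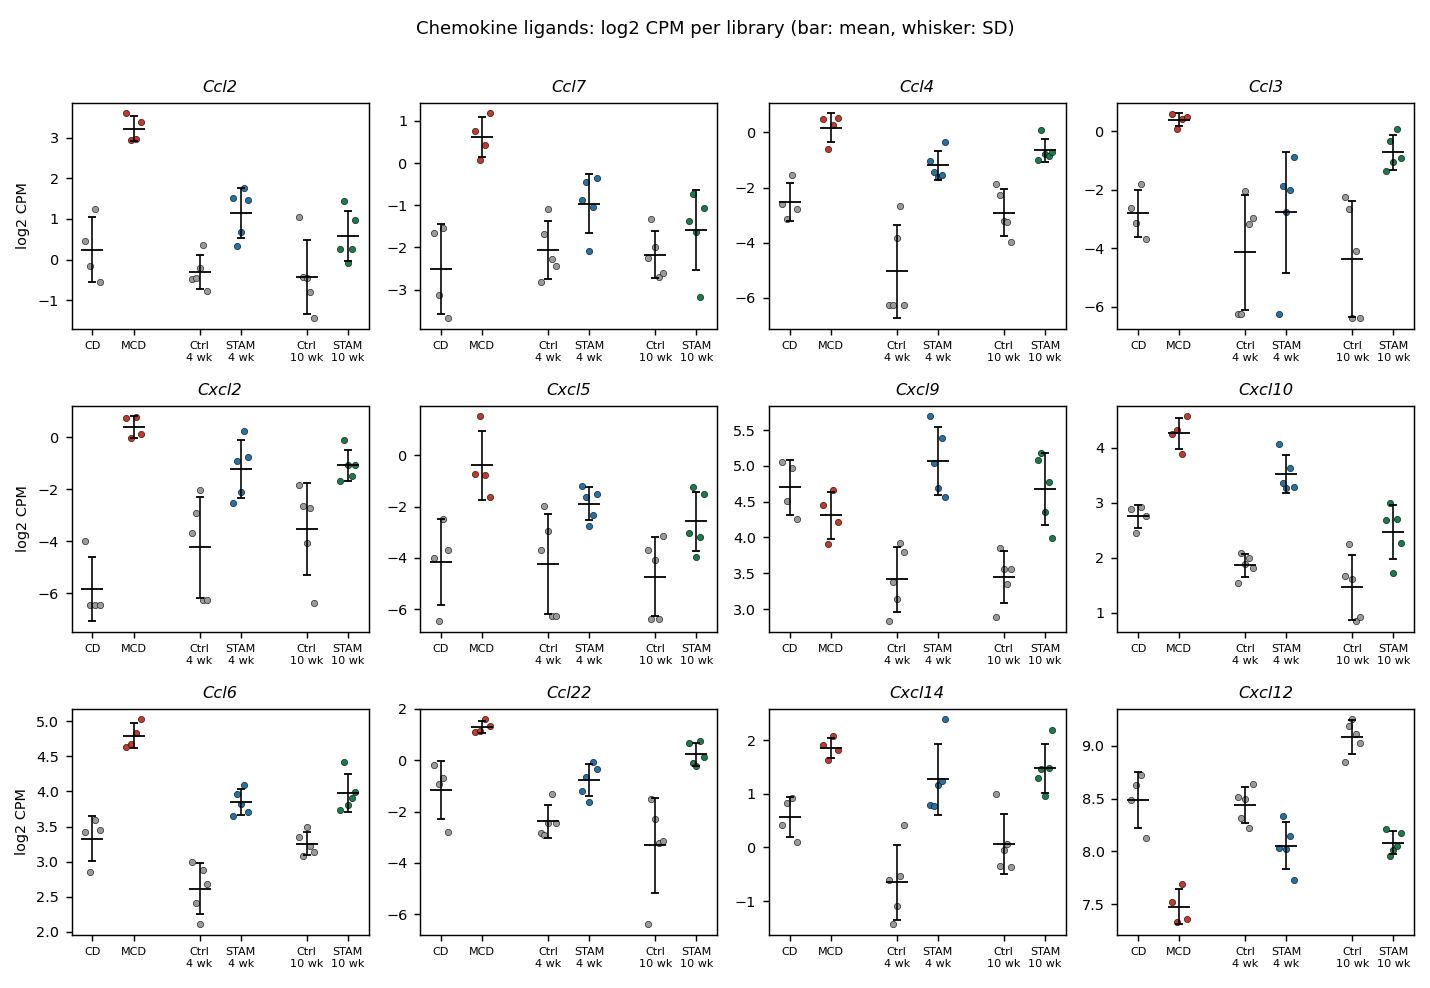
Level of 12 ligands in each of the 28 libraries, as log2 CPM on the vertical axis, by group on the horizontal axis (bar, mean of the log2 values, whisker, SD, n = 4 or 5). The 3 tables were scaled separately, so levels are read within a pair of groups. Cxcl2, Ccl7 and Ccl2 show the MCD livers well clear of CD. Cxcl12 shows the diseased livers below their controls on average in every pair, with overlap between the groups in the 4-week pair.

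A second CC cluster on chromosome 11 (chr11:83525779-83664683) holds Ccl5, Ccl9, Ccl6, Ccl3 and Ccl4, whose products attract macrophages and T cells. In MCD and at 10 weeks, 4 of these 5 were called higher and Ccl9 lower. Ccl3 was at 0.152, 0.103, 0.276 and 0.0668 CPM in CD and 1.49, 1.05, 1.33 and 1.38 CPM in MCD (log2 fold change 3.20, SE 0.44, adjusted p = 0.000103). In 10-week controls it was 0.198, 0.146, 0, 0.0469 and 0 CPM and in STAM 0.373, 0.773, 0.469, 1.04 and 0.512 CPM (log2 fold change 3.63, SE 0.80, adjusted p = 0.00222). Neither pair of groups overlapped. At 4 weeks Ccl3 was not called (log2 fold change 1.38, adjusted p = 0.503), with 32 reads in that table.

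Ccl4, the neighbour of Ccl3 and likewise a macrophage and T cell attractant, had the largest fitted change at 4 weeks. Its level was 0, 0, 0.0574, 0.146 and 0 CPM in controls, 4 reads in all, and 0.480, 0.361, 0.310, 0.329 and 0.768 CPM in STAM (log2 fold change 3.85, SE 0.75, adjusted p = 0.00643). All STAM livers were above all controls. In MCD it rose from 0.103 to 0.331 CPM to 0.644 to 1.45 CPM (log2 fold change 2.69, adjusted p = 0.000424) and at 10 weeks from 0.0508 to 0.264 CPM to 0.485 to 1.05 CPM (log2 fold change 2.27, adjusted p = 0.00126).

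Ccl5, a T cell attractant made largely by T and NK cells, had its largest fitted change at 10 weeks. In limma tests of the difference between effects, 10-week STAM was not told apart from 4-week STAM (adjusted p = 0.0832) or MCD (adjusted p = 0.066). At 10 weeks Ccl5 was at 0.198, 0.826, 0.479, 0.469 and 0.254 CPM in controls and 2.54, 2.09, 1.36, 2.28 and 1.32 CPM in STAM, with no overlap (log2 fold change 2.20, SE 0.37, adjusted p = 0.000375). At 4 weeks it was 0.709, 0.477, 0.860, 0.778 and 0.972 CPM in controls and 1.98, 1.55, 1.15, 1.60 and 1.63 CPM in STAM (log2 fold change 1.06, adjusted p = 0.0166), and without STAM replicate 1 the adjusted p was 0.0524. In CD it was 1.07, 0.724, 1.60 and 0.668 CPM and in MCD 1.81, 1.21, 2.18 and 2.01 CPM. Those groups overlapped, and the log2 fold change of 0.88 (adjusted p = 0.0435) lost its call without CD replicate 1, 2 or 4 or MCD replicate 1, 3 or 4 (adjusted p 0.0565 to 0.115).

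Ccl6 and Ccl9 are rodent ligands of Ccr1 that are next to each other on the chromosome, and they moved in opposite directions. Ccl6 rose in all 3 comparisons, from 10.2 ± 2.07 CPM (SD, n = 4) in CD to 27.8 ± 3.57 CPM in MCD (log2 fold change 1.46, adjusted p = 1.6e-05). Its log2 fold change was 1.23 at 4 weeks (adjusted p = 0.000486) and 0.71 at 10 weeks (adjusted p = 0.00056), and the groups did not overlap in any of the 3. Ccl9, the second most abundant ligand, fell from 96.3 ± 10.6 to 67.3 ± 14.3 CPM in MCD (log2 fold change -0.54, adjusted p = 0.00963) and from 98.3 ± 24.9 to 59.7 ± 11 CPM at 10 weeks (log2 fold change -0.70, adjusted p = 0.00899). Both falls overlapped between groups and were not called when libraries were scaled by total reads (adjusted p 0.48 in MCD and 0.0708 at 10 weeks). At 4 weeks the log2 fold change of Ccl9 was -0.40 (adjusted p = 0.0954).

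Receptor genes lie close together on chromosome 9 (chr9:123767211-124109140, with Ccr9, Cxcr6, Xcr1, Ccr1, Ccr1l1, Ccr3 and Ccr2). At 10 weeks Ccr1, Ccr1l1, Ccr3 and Ccr2, which are next to each other, were called higher, and Ccr9, Cxcr6 and Xcr1 were not called. Ccr1, found on monocytes and neutrophils, was at 0.330, 0.291, 0.239, 0.0469 and 0.0508 CPM in 10-week controls and 0.859, 1.95, 0.573, 0.841 and 4.74 CPM in STAM (log2 fold change 3.07, SE 0.67, adjusted p = 0.00222). STAM replicate 5 was the highest and no STAM liver reached down to a control. In MCD, Ccr1 was at 0.609, 0.207, 0.497 and 0.20 CPM in CD and 2.99, 2.09, 3.56 and 2.51 CPM in MCD, also apart (log2 fold change 2.98, SE 0.39, adjusted p = 6.35e-05). At 4 weeks it was not called (log2 fold change 1.47, adjusted p = 0.36).

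Ccr1l1, a little-studied relative of Ccr1, was at 0, 0.146, 0, 0 and 0.0508 CPM in 10-week controls and 0.149, 0.136, 0.209, 0.148 and 0.256 CPM in STAM. These values rest on 4 and 20 reads and the groups overlapped narrowly (log2 fold change 2.74, SE 0.77, adjusted p = 0.00993). Under quantile normalization it was not called (adjusted p = 0.0815). It had 9 reads in the whole MCD table and was not called at 4 weeks (adjusted p = 0.891).

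Ccr3, the eotaxin receptor of eosinophils, was at 0.132, 0.243, 0.431, 0.188 and 0.203 CPM in 10-week controls and 0.485, 0.864, 0.573, 0.594 and 0.896 CPM in STAM, with no overlap (log2 fold change 1.53, SE 0.38, adjusted p = 0.00462). Quantile normalization ended that call (0.61, adjusted p = 0.193). At 4 weeks Ccr3 was at 0.596 to 1.90 CPM in controls and 0.144 to 1.13 CPM in STAM (log2 fold change -0.87, adjusted p = 0.332), and in MCD its log2 fold change was 0.34 (adjusted p = 0.664). Its ligand Ccl24, or eotaxin-2, was at 1.72, 2.48, 2.39, 2.35 and 2.84 CPM in 10-week controls and 4.14, 2.41, 1.51, 1.63 and 0.811 CPM in STAM, which overlapped (log2 fold change -0.35, adjusted p = 0.425). Among 7 mast cell and eosinophil markers 1 of 2 tested rose at 10 weeks, Siglecf (log2 fold change 3.07), which macrophages can also express. In 10-week controls Cpa3, Mcpt4, Tpsb2 and Epx had no reads, and in 10-week STAM Cpa3 and Prg2 had none, with a summed level of 9.11 to 15.6 CPM in controls and 9.23 to 15.4 CPM in STAM. The part of eosinophils in the Ccr3 difference was not tested.

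**Figure D3:**
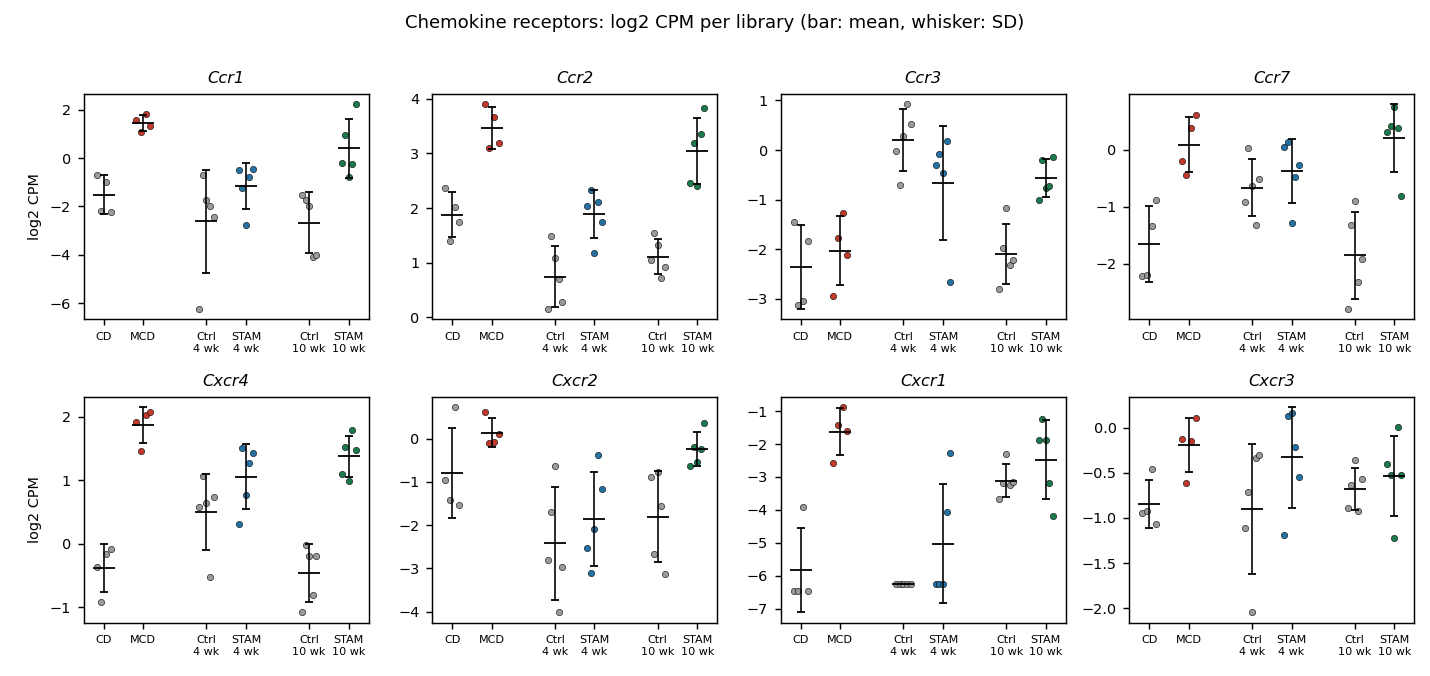
Level of 8 receptors in each of the 28 libraries, as log2 CPM on the vertical axis, by group on the horizontal axis (bar, mean of the log2 values, whisker, SD, n = 4 or 5). Ccr2 is above its controls on average in every pair, Ccr3 separates at 10 weeks and not at 4 weeks, and the level row of Cxcr1 points in 4-week controls marks libraries with no read.

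Of the 3 ligands of Cxcr3, Cxcl10 rose in every comparison, Cxcl9 rose in STAM and not in MCD, and the effects of the 2 models on Cxcl9 differed when tested against each other (difference -1.62, adjusted p = 0.00212). Cxcl9, Cxcl10 and Cxcl11 are neighbours on chromosome 5 (chr5:92321331-92363277) and attract activated T and NK cells, and Cxcl9 is strongly induced by interferon gamma. Cxcl10 was at 7.36, 5.43, 7.56 and 6.74 CPM in CD and 19.0, 20.0, 14.9 and 23.8 CPM in MCD (log2 fold change 1.51, SE 0.16, adjusted p = 1.46e-05). In 4-week controls it was 2.90, 4.23, 3.67, 3.99 and 3.49 CPM and in STAM 16.8, 10.2, 9.58, 12.3 and 9.74 CPM (log2 fold change 1.66, SE 0.17, adjusted p = 7.27e-05). Neither pair of groups overlapped. In 10-week controls it was 3.17, 4.76, 3.06, 1.78 and 1.88 CPM and in STAM 6.46, 7.91, 3.28, 6.48 and 4.82 CPM, with overlap (log2 fold change 1.01, SE 0.29, adjusted p = 0.0118), and the call ended under quantile normalization (adjusted p = 0.0952).

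Cxcl9 rose in STAM at both ages. It was at 7.09, 10.4, 8.83, 15.2 and 14.0 CPM in 4-week controls and 51.8, 32.9, 25.7, 41.9 and 23.6 CPM in STAM (log2 fold change 1.66, SE 0.26, adjusted p = 0.00361). In 10-week controls it was 7.39, 14.5, 11.8, 10.2 and 11.8 CPM and in STAM 34.0, 36.3, 20.5, 27.3 and 15.8 CPM (log2 fold change 1.23, SE 0.25, adjusted p = 0.00207). The groups were separate at both ages. In CD it was 33.3, 22.7, 31.4 and 19.2 CPM and in MCD 21.9, 15.0, 25.3 and 18.5 CPM, with overlap and no call (log2 fold change -0.39, 95% interval -0.82 to 0.04, adjusted p = 0.132). Without CD replicate 4 it was called lower there (-0.54, adjusted p = 0.0371).

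Cxcl11 was called in no comparison under the authors' scaling, with log2 fold changes of -0.45, -0.39 and -0.26 in MCD, 4-week and 10-week STAM (adjusted p = 0.216, 0.383 and 0.429). Quantile normalization called it lower in MCD (-0.81, adjusted p = 0.0432) and at 10 weeks (-0.86, adjusted p = 0.0112). Their receptor Cxcr3 was at 0.508, 0.517, 0.717 and 0.467 CPM in CD and 0.904, 0.644, 0.890 and 1.07 CPM in MCD (log2 fold change 0.65, adjusted p = 0.112). In 4-week controls it was 0.451, 0.596, 0.229, 0.778 and 0.80 CPM and in STAM 0.427, 1.08, 1.11, 0.846 and 0.672 CPM, which overlapped (log2 fold change 0.57, adjusted p = 0.42). At 10 weeks controls were at 0.528, 0.631, 0.766, 0.516 and 0.660 CPM and STAM at 0.747, 0.682, 0.417, 0.990 and 0.683 CPM (log2 fold change 0.14, 95% interval -0.49 to 0.77, adjusted p = 0.71). Cxcr3 was not called under the authors' scaling, and its reading depends on the scaling. Quantile normalization called it lower at 10 weeks (-0.76, adjusted p = 0.0443) and total-read scaling called it higher in MCD (1.07, adjusted p = 0.0129).

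Of 15 genes of the interferon gamma response, 3 rose and 8 fell in MCD, 6 rose and none fell at 4 weeks, and 7 rose and 3 fell at 10 weeks. In MCD the fallen genes included the interferon-induced GTPases Irgm1 (-1.21) and Igtp (-0.89), and Ifngr1, a chain of the receptor, rose (0.97). At 4 weeks the largest rise was that of the guanylate-binding protein gene Gbp3 (1.38). At 10 weeks it was that of Ciita, the master regulator of MHC class II (1.77). Of 9 T cell markers, 1 rose and 1 fell in MCD, none moved at 4 weeks and 4 rose at 10 weeks, with a summed level of 4.86 to 7.92 CPM in CD and 5.11 to 6.98 in MCD, 2.26 to 5.90 and 5.59 to 6.66 in 4-week controls and STAM, and 3.10 to 5.17 and 5.25 to 8.77 in 10-week controls and STAM. No T cell marker was at 0 in any group, and their part in the ligand differences was not tested.

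The 2 ligands that exist as membrane-bound proteins, Cx3cl1 and Cxcl16, rose in MCD and at 10 weeks. Cx3cl1, or fractalkine, was at 0.726, 1.46, 0.622, 0.798 and 0.711 CPM in 10-week controls and 3.62, 4.41, 3.18, 6.53 and 7.17 CPM in STAM (log2 fold change 2.51, SE 0.28, adjusted p = 1.59e-05). The CD livers were at 1.02, 0.672, 1.16 and 0.467 CPM and the MCD livers at 1.93, 2.94, 1.96 and 2.70 CPM (log2 fold change 1.57, SE 0.32, adjusted p = 0.00153). Both pairs were separate. At 4 weeks controls were at 1.03 to 2.20 CPM and STAM at 1.81 to 4.22 CPM (log2 fold change 0.72, adjusted p = 0.15).

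Its receptor Cx3cr1, carried by monocytes and macrophages, lies outside the naming rule and rose in the same comparisons. In 10-week controls Cx3cr1 was at 0.660, 0.486, 0.957, 0.563 and 1.27 CPM and in STAM at 3.02, 6.77, 4.07, 8.81 and 20.3 CPM (log2 fold change 3.19, SE 0.46, adjusted p = 0.000203). In CD it was 1.88, 1.09, 1.27 and 1.27 CPM and in MCD 9.95, 3.83, 9.74 and 3.77 CPM (log2 fold change 2.17, SE 0.34, adjusted p = 0.000319). Neither pair of groups overlapped, and STAM replicate 5 was the highest of all at 10 weeks. At 4 weeks it was not called (log2 fold change 0.45, adjusted p = 0.341).

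Cxcl16, a scavenger receptor as well as a chemokine, rose less. It was at 11.9, 9.61, 12.6 and 12.2 CPM in CD and 16.9, 16.9, 19.2 and 23.1 CPM in MCD (log2 fold change 0.71, SE 0.14, adjusted p = 0.00127). At 10 weeks controls were at 9.64, 10.1, 13.2, 10.5 and 10.5 CPM and STAM at 13.3, 17.5, 13.6, 17.9 and 21.3 CPM (log2 fold change 0.62, SE 0.13, adjusted p = 0.00184), the 2 groups only just apart. At 4 weeks the log2 fold change was 0.25 (adjusted p = 0.147). Its receptor Cxcr6, found on NKT cells and liver-resident T cells, was at 2.08, 1.29, 1.54 and 1.67 CPM in CD and 1.18, 1.21, 2.4 and 1.38 CPM in MCD (log2 fold change -0.14, adjusted p = 0.721). The 10-week controls were at 0.990, 1.80, 0.957, 0.844 and 1.07 CPM and STAM at 0.709, 0.545, 1.15, 1.53 and 1.32 CPM, which overlapped (log2 fold change -0.15, adjusted p = 0.721). The receptor was not called in any comparison under the authors' scaling, and quantile normalization called it lower at 10 weeks (-0.97, adjusted p = 0.0258) and lower at 10 than at 4 weeks in its STAM effect (-1.45, adjusted p = 0.0251).

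The dendritic cell chemokine Ccl22 rose in all 3 comparisons. Ccl22, made by dendritic cells and macrophages to attract Ccr4-bearing T cells, lies with Cx3cl1 and Ccl17 on chromosome 8 (chr8:94745684-94812036). It was at 0, 0.340, 0.191, 0.0938 and 0.102 CPM in 10-week controls and 1.57, 0.909, 0.834, 1.68 and 1.07 CPM in STAM (log2 fold change 3.55, SE 0.73, adjusted p = 0.00155). The CD livers were at 0.863, 0.517, 0.607 and 0.134 CPM and the MCD livers at 2.12, 2.17, 3.02 and 2.51 CPM (log2 fold change 2.44, SE 0.47, adjusted p = 0.00122). Neither pair overlapped. At 4 weeks it was 0.129, 0.119, 0.172, 0.389 and 0.172 CPM in controls and 0.427, 0.619, 0.310, 0.940 and 0.768 CPM in STAM (log2 fold change 1.60, adjusted p = 0.0337), and the call was lost without control replicate 2, 3 or 5 or STAM replicate 1, 2, 4 or 5 (adjusted p 0.0546 to 0.0872).

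Ccl17, the second Ccr4 ligand, was called higher in MCD, at 0.102, 0, 0.221 and 0 CPM in CD and 0.197, 0.201, 0.178 and 0.471 CPM in MCD. The groups overlapped and MCD replicate 4 was the highest (log2 fold change 2.56, adjusted p = 0.0494). The call was lost without CD replicate 2 or 4 or any of the 4 MCD livers (adjusted p 0.0746 to 0.129). The 4-week and 10-week tables held 4 and 9 reads of it. Their receptor Ccr4 was at 0, 0.0517, 0.0552 and 0 CPM in CD and 0.157, 0.121, 0.0445 and 0.157 CPM in MCD, 2 reads against 13 (adjusted p = 0.0587), and had 8 and 9 reads in the other tables.

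Ccr7, which takes dendritic cells and naive T cells to lymph nodes, was at 0.203, 0.207, 0.386 and 0.534 CPM in CD and 0.865, 0.725, 1.29 and 1.51 CPM in MCD (log2 fold change 1.74, SE 0.42, adjusted p = 0.00462). In 10-week controls it was 0.132, 0.389, 0.526, 0.188 and 0.254 CPM and in STAM 1.23, 1.32, 1.67, 1.29 and 0.555 CPM (log2 fold change 2.06, SE 0.42, adjusted p = 0.00131). Both rises were without overlap, and both were lost under quantile normalization (adjusted p 0.0732 in MCD and 0.0515 at 10 weeks). At 4 weeks its log2 fold change was 0.30 (adjusted p = 0.67). Its ligand Ccl19 was not called (adjusted p = 0.887, 0.127 and 0.0753 in MCD, 4-week and 10-week STAM), and at 10 weeks it was without control replicate 1 (1.21, adjusted p = 0.0307). The authors' deposited table called Ccl19 higher at 4 weeks (1.60, adjusted p = 0.0135). Ccl19 and Ccl27a belong to a part of chromosome 4 with near-identical gene copies, so their reads may be split among copies. Of 8 dendritic cell markers, 1 of which is Xcr1, 3 rose in MCD, 2 at 4 weeks and 4 at 10 weeks and none fell, and their summed level was 16.7 to 23.1 and 32.1 to 49.3 CPM in CD and MCD, 13.5 to 17.2 and 17.3 to 22.1 CPM in 4-week controls and STAM and 11.2 to 17.5 and 22.0 to 47.4 CPM in 10-week controls and STAM, with none at 0. Their part in these differences was not tested.

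Ccl20 was called higher in MCD on few reads. Ccl20, which attracts Ccr6-bearing T helper 17 cells and B cells, was at 0, 0.0517, 0.0552 and 0 CPM in CD and 0.275, 0.201, 0.0890 and 0.0628 CPM in MCD, 2 reads against 16, a ratio of 5.52 with a counting interval of 1.30 to 49.5. Its call in MCD (log2 fold change 2.43, adjusted p = 0.0367) was lost without CD replicate 1 or 4 or MCD replicate 1, 2 or 3 (adjusted p 0.0534 to 0.109). It had 2 and 5 reads in the 4-week and 10-week tables. Ccr6 was at 0.0508, 0.103, 0.0552 and 0 CPM in CD and 0.0393, 0.121, 0.0890 and 0.0943 CPM in MCD, with overlap (log2 fold change 0.93, adjusted p = 0.38).

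Cxcl13, the B cell attractant, fell at 10 weeks, from 1.45, 1.31, 1.82, 1.92 and 2.34 CPM in controls to 1.23, 0.636, 0.573, 0.297 and 0.128 CPM in STAM, just without overlap (log2 fold change -1.93, SE 0.47, adjusted p = 0.00468). Its receptor Cxcr5 was at 0.132, 0.389, 0.526, 0.328 and 0.559 CPM in controls and 0.187, 0.545, 0.573, 0.297 and 0.213 CPM in STAM, which overlapped (log2 fold change -0.08, adjusted p = 0.898). None of 6 B cell markers was called at 10 weeks, with a summed level of 2.31 to 5.10 CPM in controls and 3.20 to 4.96 CPM in STAM and none at 0. In MCD the log2 fold change of Cxcl13 was 0.95 (adjusted p = 0.481), where MCD replicate 4 was at 13.1 CPM and the other 7 livers at 0.443 to 1.99 CPM. At 4 weeks it was -0.34 (adjusted p = 0.8).

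The remaining members were not called in any comparison under the authors' scaling. Xcl1, a product of T and NK cells, had log2 fold changes of 0.01, -0.26 and 0.20 in MCD, 4-week and 10-week STAM. Its receptor Xcr1, which marks cross-presenting dendritic cells, had 0.80, 0.30 and 0.46. Ccr9, the gut-homing receptor, had 0.62, 1.35 and 0.67, and the mucosal ligand Ccl28 had 1.43, 0.79 and 1.29. The smallest adjusted p among these 4 genes was 0.0877, for Xcr1 in MCD. Xcr1 was called higher there under total-read scaling (1.22, adjusted p = 0.0129) and without CD replicate 1 (1.02, adjusted p = 0.0421), and Ccr9 under total-read scaling (1.04, adjusted p = 0.012). Ccr8 had 5, 6 and 5 reads in the 3 tables, Ccr10 had 0, 2 and 2, Ccl26 had 1, 1 and 3, and Cxcl17 had 4, 1 and 0, which is too few for a level.

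Cxcl12 and its receptor Cxcr4 moved in opposite directions. Cxcl12 (chr6:117168535-117181368), the constant retention signal for stem cells and lymphocytes, was by far the most abundant ligand and fell in all 3 comparisons. It was at 358, 395, 423 and 279 CPM in CD and 184, 161, 207 and 165 CPM in MCD (log2 fold change -1.01, SE 0.14, adjusted p = 7.67e-05). The 10-week controls were at 460.3, 582, 609, 552 and 520.4 CPM and STAM at 297, 249, 258, 265 and 289 CPM (log2 fold change -1.0, SE 0.09, adjusted p = 2.55e-06). Both falls were free of overlap, and under every scaling tried they stayed called. At 4 weeks the change was small, 366, 318, 361, 299 and 399 CPM in controls and 262, 323, 261, 282 and 212 CPM in STAM (log2 fold change -0.39, SE 0.11, adjusted p = 0.0481). There the groups overlapped, and the call was lost without control replicate 1, 2, 3 or 5 or STAM replicate 1, 3, 4 or 5 (adjusted p 0.0622 to 0.114). Total-read scaling, quantile normalization, no filter, no robust variance and the replicate block each ended the 4-week call too (adjusted p 0.0517 to 0.14). The authors' deposited table did not call Cxcl12 at 4 weeks (adjusted p = 0.056).

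Cxcr4 (chr1:128588199-128592299) was at 0.762, 0.517, 0.883 and 0.935 CPM in CD and 3.77, 2.74, 4.09 and 4.21 CPM in MCD (log2 fold change 2.26, SE 0.26, adjusted p = 2.35e-05). At 10 weeks controls were at 0.462, 0.971, 0.861, 0.563 and 0.863 CPM and STAM at 2.13, 2.86, 1.98, 3.46 and 2.77 CPM (log2 fold change 1.84, SE 0.26, adjusted p = 9.2e-05). Every diseased liver was above its controls in both. At 4 weeks it was 1.48, 2.09, 1.55, 0.681 and 1.66 CPM in controls and 1.23, 2.84, 1.69, 2.4 and 2.69 CPM in STAM, with overlap (log2 fold change 0.56, adjusted p = 0.32). Of 6 sinusoidal endothelial markers 2 fell in MCD, 3 at 4 weeks and 2 at 10 weeks, where Lyve1 rose, and their summed level was 282 to 292 and 234 to 287 CPM in CD and MCD, 312 to 364 and 248 to 302 CPM in 4-week controls and STAM and 252 to 359 and 288 to 347 CPM in 10-week controls and STAM. Of 7 stellate cell and fibroblast markers 6 rose in MCD, none at 4 weeks, where 1 fell, and 5 at 10 weeks, where 1 fell, with a summed level of 406 to 428 and 567 to 743 CPM in CD and MCD, 463 to 757 and 464 to 593 CPM in 4-week controls and STAM and 322 to 425 and 408 to 695 CPM in 10-week controls and STAM. No marker of these lists was at 0, and their part in the fall of Cxcl12 was not tested.

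**Figure D4:**
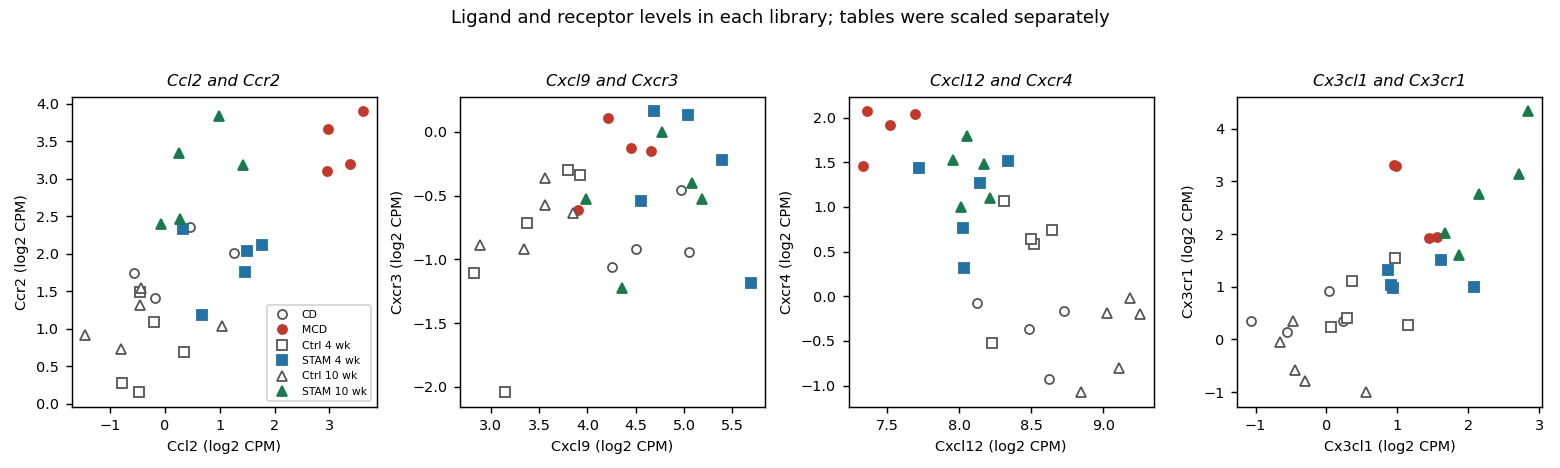
Level of a ligand (horizontal axis) and its receptor (vertical axis), both as log2 CPM, in each of the 28 libraries, with open symbols for controls and filled symbols for diseased livers. In MCD and at 10 weeks the diseased livers lie above their controls in Ccr2, Cx3cr1 and Cxcr4, to the right in Cx3cl1 and to the left in Cxcl12. The 4-week groups overlap in all 3 of these receptors, and for Cxcl9 with Cxcr3 the MCD livers overlap with the CD livers in Cxcl9.

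Cxcl14 (chr13:56288643-56296551), an epithelial chemokine without a settled receptor, rose in all 3 comparisons. It was at 0.645, 0.358, 0.459, 0.681 and 1.31 CPM in 4-week controls and 1.71, 1.70, 2.22, 2.35 and 5.23 CPM in STAM, where replicate 5 was the highest (log2 fold change 1.92, SE 0.38, adjusted p = 0.00715). It rose from 1.07 to 1.88 CPM in CD to 3.10 to 4.18 CPM in MCD (log2 fold change 1.29, adjusted p = 0.00066). From 10-week controls at 0.762 to 1.98 CPM to STAM at 1.93 to 4.52 CPM the log2 fold change was 1.41 (adjusted p = 0.00149), and those groups overlapped slightly.

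Ccl27a and Ccl25, ligands known from skin and from thymus and gut, fell in MCD. Ccl27a, which acts on Ccr10, went from 3.15 to 4.63 CPM in CD to 0.685 to 1.14 CPM in MCD (log2 fold change -1.97, SE 0.24, adjusted p = 4.39e-05). At 10 weeks it fell by 0.48 on the log2 scale (adjusted p = 0.0416), a call lost under scaling by total reads (adjusted p = 0.385) and without control replicate 1, 2 or 5 or STAM replicate 2, 4 or 5 (adjusted p 0.0693 to 0.104), and at 4 weeks it was not called (adjusted p = 0.447). Ccl25, the ligand of Ccr9, went from 1.40 to 2.87 CPM in CD to 0.403 to 0.786 CPM in MCD (log2 fold change -1.91, SE 0.32, adjusted p = 0.000403). In STAM its log2 fold change was 0.08 at 4 weeks (adjusted p = 0.865) and -0.22 at 10 weeks (adjusted p = 0.241).

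On the authors' scaling, ligand transcripts summed over the family were lower on average in diseased livers and receptor transcripts were higher. The CPM of all 35 ligands added up to 458 to 629 in CD and 352 to 407 in MCD, 492 to 583 in 4-week controls and 379 to 542 in 4-week STAM, and 672 to 768 in 10-week controls and 394 to 455 in 10-week STAM. Cxcl12 made up 66.4% ± 3.86 (SD, n = 4) of the ligand reads in CD and 46.6% ± 2.89 in MCD, 65.7% ± 3.6 (n = 5) and 56.9% ± 3.40 in 4-week controls and STAM, and 76.3% ± 6.07 and 63.1% ± 4.33 in 10-week controls and STAM. Without Cxcl12 and Ccl9 the ligands summed to 71.0 to 108 CPM in CD and 122 to 156 CPM in MCD, to 45.4 to 60.5 CPM and 86.4 to 121 CPM in 4-week controls and STAM, and to 54.7 to 109 CPM and 79.3 to 118 CPM in 10-week controls and STAM. The 18 receptors summed to 16.5 to 26.8 CPM in CD and 30.5 to 43.2 CPM in MCD, 15.7 to 21.1 and 21.8 to 31.5 CPM at 4 weeks, and 15.9 to 22.2 and 29.0 to 51.0 CPM at 10 weeks. The 4-week ligand sums overlapped between the groups. All these sums depend on the authors' scaling factors. Those factors were below 1 in every CD and 10-week control library and above 1 in every MCD and 10-week STAM library. The sums were not recomputed with total reads and were not tested.

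Per kilobase of transcript, the order of ligands began with Cxcl12 and Ccl9 in all 6 groups. In CD these were at 64.2 ± 11.1 and 32.0 ± 3.52 CPM per kilobase (SD, n = 4), followed by Cxcl1 at 9.67 ± 6.51 and Cxcl9 at 9.17 ± 2.33, which do not differ beyond their spread. In MCD they were at 31.6 ± 3.72 and 22.4 ± 4.76, followed closely by Ccl6 at 19.4 ± 2.49 and Cxcl10 at 17.7 ± 3.35, so that Ccl9, Ccl6 and Cxcl10 lay within their spread of one another. In 10-week controls Cxcl12 was at 96.1 ± 10.2 and in 10-week STAM at 47.9 ± 3.63. Among receptors, Ccr2 at 1.05 ± 0.296 CPM per kilobase and Cxcr6 at 0.870 ± 0.174 in CD did not differ beyond their spread, and in MCD Ccr2 was at 3.17 ± 0.850 and Cxcr4 at 2.04 ± 0.369.

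Whether the STAM effect differed between ages was tested as the difference of the log2 fold changes over 15022 genes. At 10 weeks 4 of 44 members had a higher effect than at 4 weeks and 1 a lower one, against 20% of all genes called, 8.89% higher and 11.2% lower, and 11 members had an unadjusted p under 0.05. Total-read scaling moved the share of called genes with a higher effect from 44.3% to 84.3% and the median of all genes by 0.21. The higher ones were the receptors Ccr3 (2.4, SE 0.64, adjusted p = 0.0118), Ccr7 (1.76, SE 0.55, adjusted p = 0.0279) and Cxcr4 (1.28, SE 0.42, adjusted p = 0.0357) and the ligand Cx3cl1 (1.79, SE 0.42, adjusted p = 0.00548). Cxcl12 was the lower one (-0.62, SE 0.15, adjusted p = 0.00552). The difference in Cx3cl1 was called under every alternative tried. Those in Ccr3, Ccr7, Cxcr4 and Cxcl12 were lost under quantile normalization, that in Ccr3 narrowly (adjusted p = 0.0593). The Cxcl12 difference was lost under total-read scaling as well (adjusted p 0.0635 to 0.0882 over these 2 scalings). The Cxcr4 difference was lost too with limma-voom on recovered reads and with the replicate number as a block (adjusted p 0.0556 to 0.193 with quantile normalization included). That in Cxcr4 was lost in 10 of 20 fits that left out 1 library, without 4-week control replicate 2, 3 or 5, 4-week STAM replicate 1 or 3, 10-week control replicate 1 or 4 or 10-week STAM replicate 2, 4 or 5 (adjusted p 0.055 to 0.0722), and that in Ccr7 without 4-week control replicate 2, 4-week STAM replicate 3 or 10-week STAM replicate 3 (adjusted p 0.051 to 0.058).

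For Ccl2, Cxcl9 and Cxcl10 the STAM effects at the 2 ages were not told apart. The difference was -0.46 for Ccl2 (95% interval -1.62 to 0.69), -0.42 for Cxcl9 (-1.23 to 0.38) and -0.64 for Cxcl10 (-1.38 to 0.10). For Ccr2 it was 0.79 (-0.06 to 1.64).

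Whether MCD and 10-week STAM differed in their effects was tested in the same way over 14986 genes, each effect being taken against its own controls. MCD had the higher effect for 5 of 46 members and the lower for 4, against 27.9% of all genes called, 12.9% higher and 15% lower, and 12 members had an unadjusted p under 0.05. Total-read scaling moved the share of called genes with a higher MCD effect from 46.2% to 62.5%. The higher effects were those of Cxcl2 (3.79, SE 1.04, adjusted p = 0.00973), Cxcr1 (3.57, SE 0.95, adjusted p = 0.00794), Ccl7 (2.53, SE 0.74, adjusted p = 0.0144), Ccl2 (1.99, SE 0.60, adjusted p = 0.0183) and Ccl6 (0.75, SE 0.21, adjusted p = 0.0115). The lower effects included those of Ccl25 (-1.69, SE 0.32, adjusted p = 0.00048), Cxcl9 (-1.62, SE 0.35, adjusted p = 0.00212) and Ccl27a (-1.49, SE 0.29, adjusted p = 0.000726). These 8 were called in every alternative in which they were tested. The models also differ in diet, age and duration, which cannot be told apart from the model. For Cxcl12 the difference was -0.01 with a 95% interval of -0.35 to 0.32, for Cxcr4 0.42 (-0.35 to 1.19) and for Ccr2 -0.35 (-1.15 to 0.46).

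**Figure D5:**
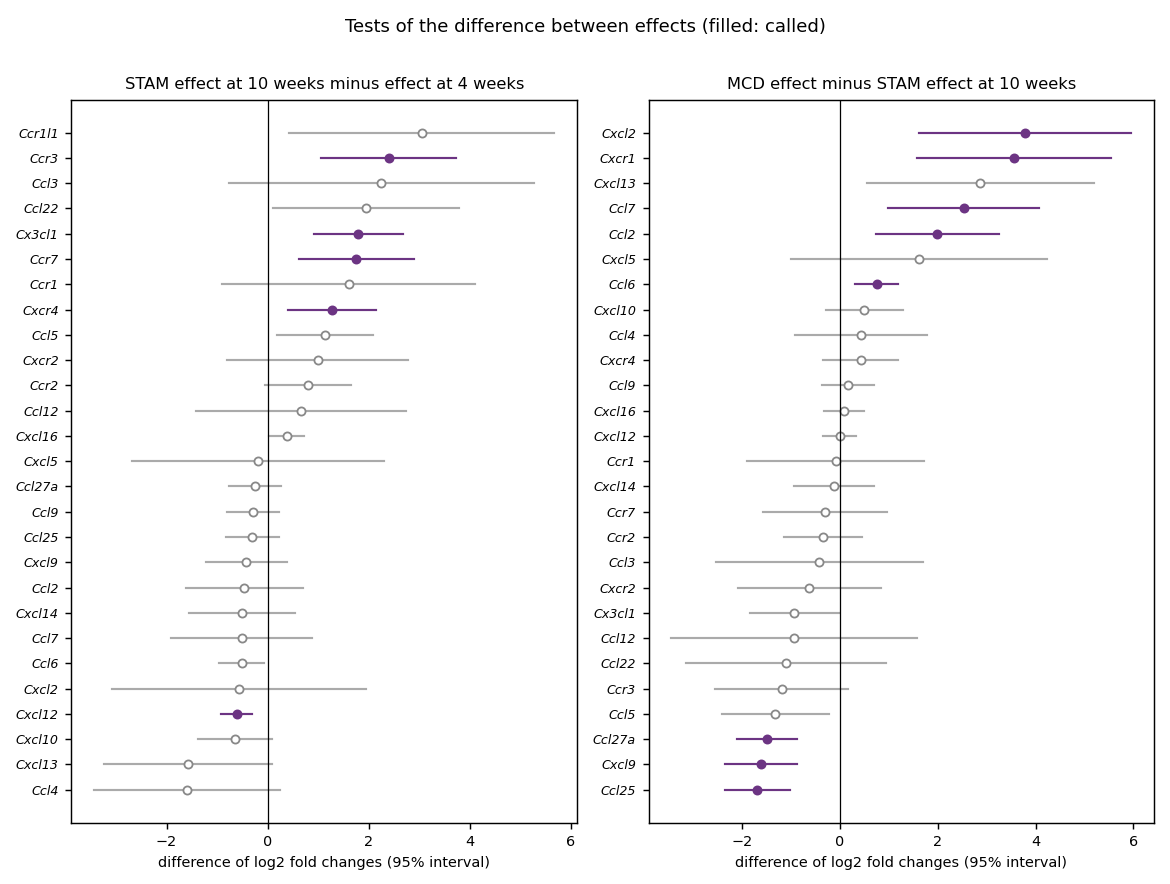
Difference between 2 effects on the log2 scale with its 95% interval (horizontal axis) for members called in at least 1 comparison with 10 or more reads in both tables, left the STAM effect at 10 weeks minus that at 4 weeks, right the MCD effect minus the 10-week STAM effect. Filled points were called, with Ccr3 and Cx3cl1 to the right and Cxcl12 to the left of 0 in the first panel, and Cxcl2 and Ccl2 to the right and Cxcl9 and Ccl25 to the left in the second.

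Genes that work beside the chemokines were read from lists. Among all genes tested, 22.6%, 6.52% and 25.3% were called higher in MCD, 4-week and 10-week STAM. The shares called lower were 20.1%, 3.27% and 22.5%. Of 29 measured genes of chemokine receptor signalling and leukocyte migration, 23 rose in MCD, 10 at 4 weeks and 26 at 10 weeks, and none fell, with a median log2 fold change of 0.96, 0.43 and 0.90. Sele, the endothelial selectin that slows leukocytes, rose in MCD (3.97) and at 10 weeks (4.29). Rgs1, a brake on G protein signalling in leukocytes, rose in MCD (2.97) and at 10 weeks (1.41). Pik3r5, a regulatory subunit of the kinase that chemokine receptors engage, rose in MCD (2.09), at 4 weeks (1.0) and at 10 weeks (1.51).

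Of 15 inducers and feedback genes of NF-kappaB, 10 rose and 2 fell in MCD, 5 rose at 4 weeks, and 8 rose and 1 fell at 10 weeks. The endotoxin co-receptor gene Cd14 rose in each (2.54, 1.61 and 1.60), and Tnf, an inducer of many chemokines, rose in MCD (2.31). Tnfaip2 and Birc3 fell in MCD and Tnfaip2 at 10 weeks. Of 12 measured relatives outside the naming rule, 4 rose and 3 fell in MCD, 2 rose at 4 weeks, and 7 rose and 1 fell at 10 weeks. Ackr2, a decoy receptor that removes inflammatory CC chemokines, rose in all 3 (0.95, 0.47 and 1.43). Rarres2, the gene of the hepatocyte chemoattractant chemerin, fell in MCD (-1.13), as did Ackr4, a decoy receptor for Ccl19 and Ccl25 (-1.04). Other cell type lists were read beside the shares of all genes called higher (22.6%, 6.52% and 25.3% in MCD, 4-week and 10-week STAM). No list was tested against these shares. In the same order 5, 4 and 5 of 6 cholangiocyte markers were higher, and 3, none and 3 of 6 NK cell markers. Of 7 Kupffer cell markers 2, 5 and 1 were higher, and 1 was lower at 10 weeks. Of the platelet markers 2 of 5 tested, none of 6 and 2 of 6 were higher.

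The authors' deposited table gave 22 members an adjusted p under 0.05 in MCD, 18 higher and 4 lower. It gave 11 at 4 weeks, all higher, and 24 at 10 weeks, 20 higher and 4 lower. Of the members called here, 22, 10 and 23 were also called in the authors' deposited table. At 4 weeks that table called Ccl19 higher and did not call Cxcl12. At 10 weeks it called Cxcl1 lower and did not call Ccl12 or Ccl27a (adjusted p = 0.079 and 0.0515).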

How the data were processed

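Poly(A) RNA of whole liver was sequenced as stranded paired-end libraries, per the labels' protocols, and the aligner STAR 2.4.2a and the build mm10 come from the submitters' processing notes. The counter, strand setting and annotation behind the gene values are not stated in the labels or headers. The deposited values are log2 CPM per library, scaled by the authors within each of 3 tables, with a prior of 0.25 reads. The tables also hold the authors' log2 fold changes, p-values and adjusted p-values. They hold gene lengths too.

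All deposited log2 values came back as whole reads within 0.05 reads, and CPM values in the text are these reads over the authors' scaled library sizes. Differences were tested on the deposited log2 values with limma 3.58.1 (R 4.3.3, statmod 1.5.0, trended and robust variance) over all genes whose mean was above the 25th percentile, with Benjamini-Hochberg adjustment over all of them. A gene was called at an adjusted p under 0.05. Differences between effects were tested as the difference of 2 disease-minus-control contrasts in a fit over both tables. The script was tested on simulated data. Libraries held 16184576 to 25911864 reads summed over genes. On the scaled library sizes 3 reads came to at most 0.20 CPM, and counting intervals (95%) and this floor cover counting error only.

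The members and gene lists were chosen with earlier results of these data known. Per-sample values are given for the 4 called ligands and 2 called receptors with the largest fold change in each comparison and for both partners of known ligand and receptor pairs where either was called. The results of 1 member are not reported here. Members with under 10 reads in a table are given by their reads there. Alternatives were total-read scaling, quantile normalization, a prior of 2 reads, a filter at the 40th percentile, no filter, no robust variance, limma-voom on recovered reads, the replicate number as a block, and leaving out each library.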

Additional observations from a re-analysis of the deposited data

Results flagged for a closer look

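In 191 groups of 4 or 5 libraries examined, 1 library lay far from the rest in 9, judged by its gap to the nearest library over the range of the group, and chance gives about 1 in 20. In log2 CPM these were Ccl17 in MCD replicate 4 at -1.05 (the other MCD livers at -2.4 to -2.23), Cxcl1 in CD replicate 3 at 4.20 (others 2.47 to 2.69) and Ccr3 in 4-week STAM replicate 5 at -2.67 (others -0.47 to 0.19). Cxcl14 in that same 4-week STAM liver was at 2.39 (others 0.78 to 1.24). Ccl4 and Ccl9 were both high in 10-week STAM replicate 2, at 0.081 (others -1.01 to -0.71) and 6.31 (others 5.73 to 5.82). Ccr7 was low in 10-week STAM replicate 5 at -0.82 (others 0.31 to 0.75). Cxcl16 was high in 10-week control replicate 3 at 3.72 (others 3.27 to 3.40). Ccr6 was low in 10-week control replicate 5 at -6.39 (others -2.68 to -1.97), a library with 0 reads of that gene.

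The effect of STAM differed between ages by an interaction test in limma for 5 members, as the 10-week minus the 4-week log2 fold change. These were Ccr3 at 2.4, Cx3cl1 at 1.79, Ccr7 at 1.76, Cxcr4 at 1.28 and Cxcl12 at -0.62. Among these 5, Ccr3 is the one whose fitted STAM effect had opposite signs at the 2 ages (-0.87 and 1.53), and its 4-week value was not called. The effect of MCD differed from that of 10-week STAM, by the same kind of test, for 8 members given here. The difference was 3.79 for Cxcl2, 3.57 for Cxcr1, 2.53 for Ccl7, 1.99 for Ccl2 and 0.75 for Ccl6, and it was -1.69 for Ccl25, -1.62 for Cxcl9 and -1.49 for Ccl27a.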

How the results depend on the processing

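No called member changed direction under any alternative. Of members not called, Cxcr3 at 10 weeks went from 0.14 to a lower call under quantile normalization (-0.76, adjusted p = 0.0443). Calls present under every alternative in which the gene was tested numbered 19 of 24 in MCD, 6 of 11 at 4 weeks, 15 of 25 at 10 weeks, 1 of 5 for the age difference and 9 of 9 for the model difference. In MCD the filter at the 40th percentile, which tests fewer genes, left 11 higher calls. At 4 weeks there were 0 lower calls under total-read scaling, quantile normalization, no filter and no robust variance. Leaving out each library at 4 weeks gave 6 to 10 higher calls, 0 to 1 lower calls and 982 to 1821 genes called in all. At 10 weeks total-read scaling gave 2 lower calls, quantile normalization 13 higher and 8 lower, and the 40th percentile 10 higher. For the age difference total-read scaling gave 0 lower calls, quantile normalization 1 higher, the 40th percentile 2 higher, and leaving out each library 2 to 6 higher and 1 to 2 lower. For the model difference the 40th percentile gave 2 higher calls. The cause of the other changes was not tested.

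The replicate numbers did not pair the samples, with correlations of same-numbered deviations between -0.1218 and 0.008238. With the replicate number as a block, 19 members were called higher and 4 lower in MCD (5507 genes in all), 7 and 0 at 4 weeks (848 genes), 20 and 3 at 10 weeks (6566), 4 and 1 for the age difference (2071) and 5 and 4 for the model difference (3234).

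Depth limits the low members most. Values of 0.05 CPM are about 1 read, so Ccl12, Ccl17, Ccl20, Ccr1l1 and Cxcr1 rest on a few reads in each library. A prior of 2 reads lowered the fitted log2 fold change of Cxcl2 in MCD from 6.25 to 3.79.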
